A study of Mus musculus with 6 samples.

Results

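Transfer RNA is chemically modified after transcription by many enzymes, and the transcripts of 39 of these enzymes and their partner subunits were followed in intestinal tissue of mice with dextran sulfate sodium (DSS) colitis. The 39 genes write modifications other than 1-methyladenosine. They were taken by symbol from the 55335 genes of the deposited count table, and each symbol matched 1 gene. The libraries came from Trmt6-/- mice (3 libraries) and wild-type (WT) mice (3 libraries), all given the sulfated polysaccharide DSS, which damages the gut lining. The TRMT6 protein pairs with the catalytic TRMT61A to write 1-methyladenosine in tRNA, so the comparison asks whether transcripts of the remaining modification enzymes differ when Trmt6 is targeted. The labels state neither strain nor age, gut segment or how the Trmt6 allele was made, and no library of mice without DSS was analysed here.

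As background, tRNA modifications fall into those of the anticodon loop and those of the tRNA body. Modifications at the wobble base and next to the anticodon, such as inosine, queuosine, thiolated uridines and wybutosine, act in codon reading and keep the reading frame. Modifications of the body, such as dihydrouridine, 5-methylcytidine (m5C), 7-methylguanosine (m7G) and dimethylguanosine, are known for folding and stability of the tRNA. RNA-seq of mRNA measures the transcripts of the enzymes and not the modifications.

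The libraries held 15213972 to 16972758 counts. Counts were scaled to CPM, counts relative to library size after trimmed mean of M values (TMM) scaling, and to CPM per kilobase of exon (RPKM) where levels of different genes are compared. Trmt6 itself was no lower under the Trmt6-/- label than under the WT label. All 3 libraries labelled Trmt6-/- lay above all 3 WT libraries, and 18.7% of all genes tested had groups without overlap. Trmt6 stood at 39.8, 34.2 and 36.2 CPM in libraries KO72, KO73 and KO75, against 30.9, 18.7 and 23.1 CPM in libraries WT185, WT186 and WT187 (log2 fold change 0.60 ± 0.21 SE, adjusted p = 0.335). The groups are therefore called the libraries labelled Trmt6-/- and WT, and each direction rests on those labels. Of 14107 genes tested across the whole table, 6 (0.0425%) passed an adjusted p of 0.05 in the quasi-likelihood test of edgeR with Benjamini-Hochberg adjustment. The 5 epithelial genes used as a marker list (Epcam, Cdh1, Vil1, Krt8 and Krt20) summed to 9794 to 12330 CPM across the libraries labelled Trmt6-/- and to 8428 to 10550 CPM in WT. The 6 stromal and muscle genes summed to 2.43 to 8.47 CPM under the Trmt6-/- label and to 5.37 to 6.62 CPM in WT. The 5 genes listed as distal colon markers summed to 0.0712 to 1.26 CPM under the Trmt6-/- label and to 1.5 to 56.6 CPM in WT, without overlap. In WT most of that came from Aqp8, a water channel, at 8.02, 54.5 and 0.959 CPM in libraries WT185, WT186 and WT187. Aqp8 stood at 0.28, 0.70 and 0 CPM in libraries KO72, KO73 and KO75 (log2 fold change -5.98 ± 1.65 SE, adjusted p = 0.25). Hoxb13 and Hoxd13 were at 0 counts in all 6 libraries, and Car1 had counts only in WT185, at 1.98 CPM. WT186, highest in Aqp8, was also highest in Lct of the proximal small-intestinal list, at 3192 CPM. The sum is therefore not read as a measure of distal colon content.

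Of the 39 genes, 37 passed the filter on low counts and were tested. None of the 37 passed the adjusted threshold in edgeR, and none in DESeq2 or limma-voom. The lowest adjusted p of the 37 was 0.426, for Dus2. None was at an unadjusted p below 0.05 in edgeR either, where 12.1% of all genes tested were; DESeq2 put Alkbh8 and Dus2 below that value (5.41%, against 13.9% of all genes in that fit) and limma-voom none (against 11.7%). The median log2 fold change of the 37 was -0.01, beside -0.03 for all genes tested, with 18 above 0 and 19 below 0 (48.6% above 0, against 46.1% of all genes). That split moved with the setting, with 7 above 0 with ileal against proximal marker levels as a covariate, 11 without WT186 and 25 without WT185. The median of the 37 in those settings was -0.425, -0.103 and 0.147, beside 0.004, -0.017 and 0 for all genes tested. Between groups 32 of the 37 differed by less than 0.5 on the log2 scale (86.5%, against 73.6% of all genes). In tissue RNA, fewer cells of a type and less RNA per cell cannot be told apart.

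The precision of these comparisons was moderate. The 95% interval of the log2 fold change had a half-width of 0.34 to 1.37 with a median of 0.70. For 22 of the 37 genes the interval lay within a 2-fold change in either direction, so a larger difference was outside the interval. For 9 genes it reached past a 2-fold rise and for 9, some of them the same genes, past a 2-fold fall, so a difference of that size stayed inside the interval.

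**Figure D1:**
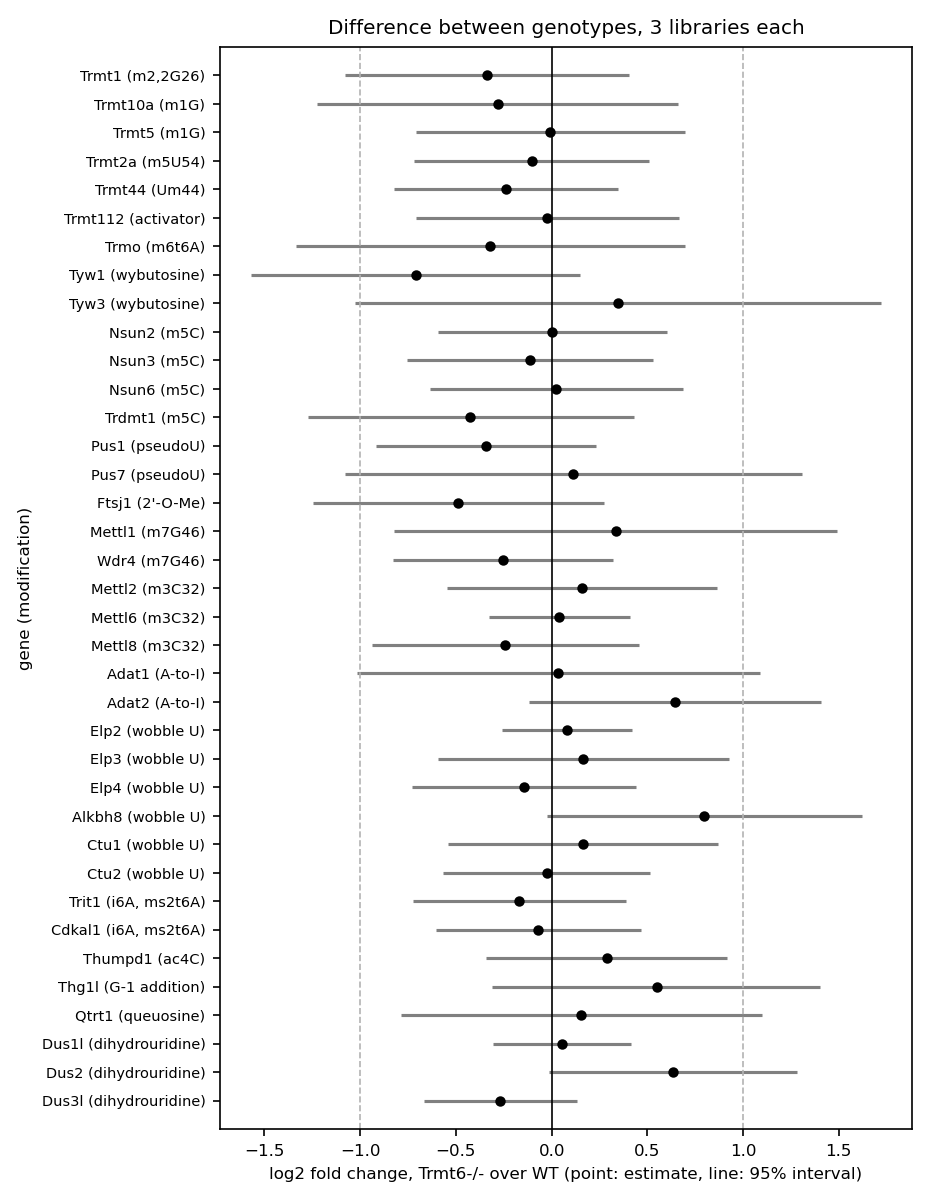
Log2 fold change of 37 tRNA modification genes between the libraries labelled Trmt6-/- and WT (x axis; point, edgeR estimate; line, 95% interval; 3 libraries in each group), by gene and modification (y axis). All 37 intervals include 0, and 22 stay between the dashed lines of a 2-fold change.

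The promoters of 3 genes are shown because the results below turn on them: Pus7 and Mettl1 varied most among the WT libraries, and Alkbh8 had the largest log2 fold change of the set. The bases lie upstream of the RefSeq start on GRCm38.p6 and outside every exon of the deposited annotation. They are written 5′ to 3′ on the gene's strand, with capitals for the motifs searched.
Pus7 (chr5:23783712-23783961, minus strand): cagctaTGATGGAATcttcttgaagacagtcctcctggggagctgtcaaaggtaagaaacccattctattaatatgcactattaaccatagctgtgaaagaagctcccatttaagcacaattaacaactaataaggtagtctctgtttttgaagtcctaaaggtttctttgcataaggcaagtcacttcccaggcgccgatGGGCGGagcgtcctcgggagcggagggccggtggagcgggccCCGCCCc
Mettl1 (chr10:127041722-127041931, plus strand): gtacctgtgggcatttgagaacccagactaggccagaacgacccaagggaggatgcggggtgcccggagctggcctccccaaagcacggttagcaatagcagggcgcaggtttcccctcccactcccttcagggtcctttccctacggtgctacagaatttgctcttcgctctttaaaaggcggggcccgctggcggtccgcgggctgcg
Alkbh8 (chr9:3334981-3335139, plus strand): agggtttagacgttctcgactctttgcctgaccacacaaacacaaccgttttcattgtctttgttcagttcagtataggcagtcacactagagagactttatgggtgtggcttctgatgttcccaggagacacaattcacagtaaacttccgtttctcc

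The motifs searched on both strands, in the 250 bases before the first RefSeq start, were the NF-Y box CCAAT, the Sp1 box GGGCGG, the E-box CACGTG that MYC binds, the E2F string TTTCCCGC, the ETS string CCGGAAG, the ATF4 composite site TGATGNAAT and the cyclic AMP response element TGACGTCA. None of these letter strings contains another. Of the 39 genes 34 had a RefSeq window. CCAAT was in 12 of the 34 (35.3%, against 34.5% of 27025 genes with a window) and GGGCGG in 11 (32.4%, against 32.9%). The ETS-type string CCGGAAG was in 5 (14.7%, against 7.05%). CACGTG was in 2 (5.88%, against 6.05%) and TTTCCCGC in 1 (2.94%, against 0.929%). TGACGTCA was in 2, Trmt5 and Dus2 (5.88%, against 1.62%). TGATGNAAT, the composite site of ATF4, was in the Pus7 window and in no other of the 34 (2.94%, against 0.825%). The Pus7 window also held GGGCGG at 2 places, and the Mettl1 and Alkbh8 windows held none of the strings. These are letter matches only.

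The levels of the genes differed widely. Nsun2, the m5C methyltransferase of many cytosolic tRNAs, had the highest length-scaled level with a mean of 18.4 RPKM over the 6 libraries. By length over all exonic bases, it was followed by Dus3l, a dihydrouridine synthase, at 13.2 RPKM and by Pus1, a pseudouridine synthase, at 12.9 RPKM. That length includes bases shared with other genes, over which reads were not counted. Trmt112, at 10.55 RPKM, has 39.1% of its exonic bases shared. Its place below Dus3l and Pus1, and the order of those 2, therefore rest on the length used. Among genes with counts, the lowest were Tyw3 of the wybutosine pathway at 0.386 RPKM and Trmt10a, a guanosine methyltransferase of the tRNA core, at 0.473 RPKM. The range from Tyw3 to Nsun2 was wider than the range of any gene between libraries. In the middle of the order, neighbours overlapped across libraries.

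Pus3 and Adat3 had 0 counts in all 6 libraries. Pus3 encodes the synthase of pseudouridine in the anticodon stem-loop and Adat3 the non-catalytic subunit of the wobble adenosine deaminase. Of the 2972 exonic bases of Pus3, 2618 (88.1%) also belong to Hyls1 on the other strand. All 1648 exonic bases of Adat3 (100%) also belong to Gm49322 or Scamp4 on the same strand. Read pairs that overlapped exons of several genes were left out by the authors' counting, so only reads over the other 354 bases of Pus3 could be counted and none over Adat3. The zeros therefore say little about the Pus3 transcript and give no bound for Adat3. In the other 37 genes 0% to 47.3% of exonic bases were shared with another gene, most in Ctu2 (47.3%, with Piezo1) and Trmt112 (39.1%, with Prdx5 and Esrra). The per-length levels of those genes are lowered by this.

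**Figure D2:**
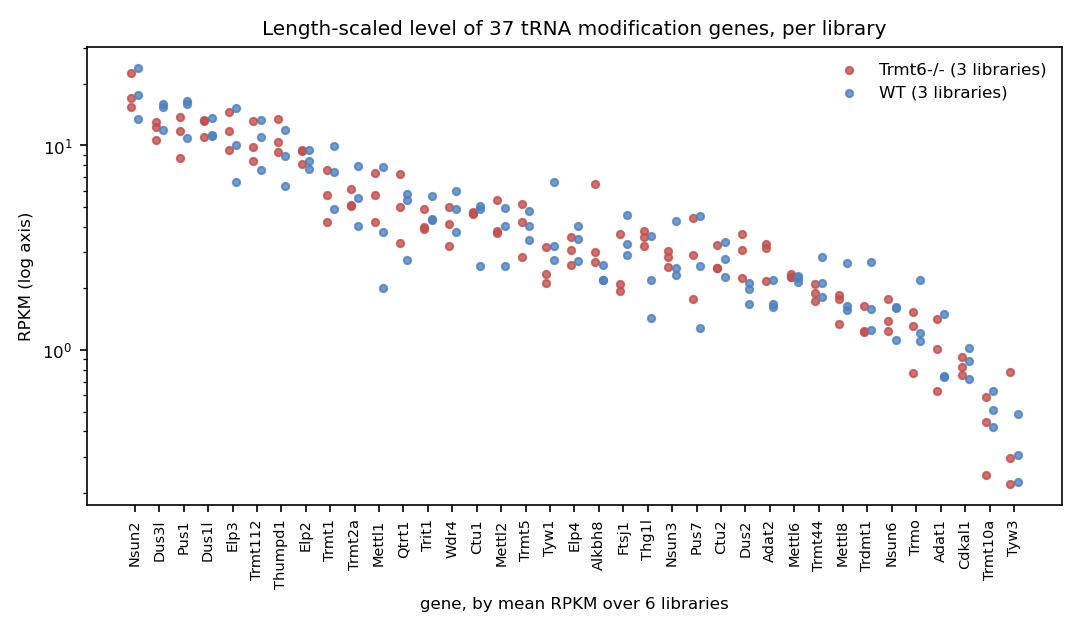
Length-scaled level (RPKM, log axis) of 37 tRNA modification genes (x axis, ordered by mean) in each library; red points are the 3 libraries labelled Trmt6-/- and blue points the 3 WT libraries. Nsun2 stands highest and Tyw3 lowest, and the red and blue points of most genes overlap. Pus3 and Adat3, at 0 counts, are left out. Lengths include exonic bases shared with other genes, which lowers genes such as Trmt112 and Ctu2.

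Anticodon-loop enzymes are taken first, beginning with the wobble uridine pathway. Elongator (Elp genes) starts the side chain, Alkbh8 methylates and hydroxylates it, and the Ctu1-Ctu2 pair adds sulfur. Alkbh8 stood at 23.7, 26.3 and 56.6 CPM in libraries KO72, KO73 and KO75, against 19.2, 22.9 and 19.2 CPM in libraries WT185, WT186 and WT187. All 3 libraries labelled Trmt6-/- were above all 3 WT libraries, KO75 by far the most. The log2 fold change was 0.80 ± 0.35 SE (95% interval -0.02 to 1.62, adjusted p = 0.428), which misses the threshold. Without KO75 it was 0.30 ± 0.19 (adjusted p = 0.635). The remaining genes of the pathway differed little. Elp2 averaged 56.6 ± 4.83 CPM under the Trmt6-/- label and 53.5 ± 5.64 CPM in WT, Elp3, the catalytic subunit, 35.8 ± 7.56 CPM under the Trmt6-/- label and 31.9 ± 13.1 CPM in WT, and Elp4 10.2 ± 1.57 CPM under the Trmt6-/- label and 11.3 ± 2.18 CPM in WT (SD, n = 3 each, as for the other means).

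Ctu1 stood at 11.4, 11.7 and 11.6 CPM across the libraries labelled Trmt6-/-, against 12.5, 6.35 and 12.05 CPM in WT. Ctu2 stood at 16.8, 13.1 and 12.95 CPM under the Trmt6-/- label, against 17.4, 11.7 and 14.4 CPM in WT. The groups of both genes overlapped, and for Ctu1 the WT library WT186 lay below all others. The log2 ratio of Ctu1 to Ctu2 per exonic base was 0.77 ± 0.23 in the libraries labelled Trmt6-/- and 0.52 ± 0.32 in WT (SD, n = 3 each; exact two-sided permutation test, p = 0.3, adjusted p = 0.45 over the 3 pairs tested, smallest possible p 0.1). Reads over Ctu2's shared exons were not counted, so the ratio over all exonic bases is too high. Over exonic bases that no other gene shares, the mean log2 ratio was -0.16 in the libraries labelled Trmt6-/- and -0.40 in WT. Per countable base, Ctu2 was thus on average the higher subunit in both groups.

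Inosine at the wobble base is made by the Adat2-Adat3 pair, and Adat1 makes inosine next to the anticodon of alanine tRNA. Adat2, the catalytic subunit, stood at 4.63, 4.82 and 3.2 CPM in libraries KO72, KO73 and KO75, against 3.23, 2.39 and 2.46 CPM in libraries WT185, WT186 and WT187. KO75 lay just below WT185, and the 2 other libraries labelled Trmt6-/- were above all of WT. Its log2 fold change was 0.65 ± 0.32 SE (95% interval -0.12 to 1.41, adjusted p = 0.505). Adat1 averaged 4.49 ± 1.72 CPM under the Trmt6-/- label and 4.38 ± 1.94 CPM in WT. The ratio of Adat2 to Adat3 could not be formed because Adat3 had no counts.

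Modifications next to the anticodon include wybutosine, a tricyclic base of phenylalanine tRNA. Tyw1, which builds its ring, stood at 23.5, 15.7 and 17.4 CPM across the libraries labelled Trmt6-/-, against 23.7, 48.8 and 20.3 CPM in WT. WT186 was high, and the other 5 libraries lay between 15.7 and 23.7 CPM. The log2 fold change of -0.71 ± 0.36 SE (adjusted p = 0.519), the lowest of the set, became -0.21 ± 0.23 without WT186 (adjusted p = 0.758). Tyw3, a methyltransferase of the same pathway, stood at 3.50, 1.33 and 0.996 CPM under the Trmt6-/- label, against 2.19, 1.02 and 1.38 CPM in WT, with 175 counts in all 6 libraries together. Trmt5, which methylates the guanosine next to the anticodon, averaged 8.71 ± 2.48 CPM under the Trmt6-/- label and 8.74 ± 1.45 CPM in WT. Trit1 (isopentenyl adenosine) averaged 8.90 ± 1.14 CPM under the Trmt6-/- label and 10.0 ± 1.58 CPM in WT and Cdkal1 (methylthio groups) 10.7 ± 1.05 CPM under the Trmt6-/- label and 11.2 ± 1.95 CPM in WT. Trmo, which methylates the threonylcarbamoyl adenosine, averaged 2.75 ± 0.90 CPM under the Trmt6-/- label and 3.43 ± 1.37 CPM in WT.

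Ftsj1, which places ribose methyl groups in the anticodon loop, stood at 17.6, 9.22 and 9.96 CPM in libraries KO72, KO73 and KO75, against 21.9, 13.9 and 15.8 CPM in libraries WT185, WT186 and WT187. KO72 lay within the WT range and the other 2 libraries below it (log2 fold change -0.49 ± 0.32 SE, adjusted p = 0.622). Qtrt1, the catalytic subunit that inserts queuine at the wobble guanosine, stood at 14.3, 9.85 and 6.55 CPM under the Trmt6-/- label, against 11.4, 5.46 and 10.7 CPM in WT. The log2 ratio of Qtrt1 to its partner Qtrt2 per exonic base was 0.48 ± 0.16 in the libraries labelled Trmt6-/- and 0.33 ± 0.14 in WT (SD, n = 3 each; exact permutation p = 0.5, adjusted p = 0.5). The 3-methylcytidine (m3C) enzymes of the anticodon loop, Mettl2, Mettl6 and Mettl8, had log2 fold changes of -0.24 to 0.16. Mettl6 was nearly level in all 6 libraries, at 17.6, 18.2 and 17.7 CPM across the libraries labelled Trmt6-/-, against 16.7, 17.9 and 17.4 CPM in WT.

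Among enzymes of the tRNA body, Mettl1, the m7G methyltransferase, stood at 21.3, 12.2 and 16.6 CPM in libraries KO72, KO73 and KO75, against 22.8, 5.87 and 11.0 CPM in libraries WT185, WT186 and WT187. Its obligate partner Wdr4 stood at 27.1, 22.4 and 17.6 CPM under the Trmt6-/- label, against 32.7, 20.6 and 26.6 CPM in WT. Both genes overlapped between groups, and Mettl1 spanned 3.89-fold among the WT libraries. The log2 ratio of Mettl1 to Wdr4 per exonic base was 0.56, 0.03 and 0.82 in KO72, KO73 and KO75, against 0.38, -0.91 and -0.37 in WT185, WT186 and WT187. The means were 0.47 ± 0.40 in the libraries labelled Trmt6-/- and -0.30 ± 0.65 in WT (SD, n = 3 each), a difference of 0.77 (exact two-sided permutation test, p = 0.2, adjusted p = 0.45). With 3 libraries in each group the test cannot go below 0.1.

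Dihydrouridine is made by the Dus enzymes, each at its own positions of the D loop or variable loop. Dus2 stood at 10.4, 7.54 and 12.5 CPM in libraries KO72, KO73 and KO75, against 5.68, 6.69 and 7.19 CPM in libraries WT185, WT186 and WT187. All libraries labelled Trmt6-/- were above all WT libraries, KO73 and WT187 by a narrow gap. The log2 fold change was 0.63 ± 0.27 SE (95% interval -0.01 to 1.28, adjusted p = 0.426), which did not pass, and 14.1% of its exonic bases are shared with Dpep2nb, Dpep2 or Ddx28. Dus3l stood at 38.2, 36.3 and 31.2 CPM under the Trmt6-/- label, against 46.7, 35.1 and 45.4 CPM in WT, and Dus1l averaged 46.8 ± 4.89 CPM under the Trmt6-/- label and 45.1 ± 5.25 CPM in WT. The 3 genes of this class therefore did not share a direction. Alkbh8 and Dus2 were the only genes of the 37 whose groups did not overlap (5.41%, against 18.7% of all genes tested), and they and Tyw1 are given per library because of their values.

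The m5C enzymes and pseudouridine synthases are grouped by modification, whatever the position in the tRNA. Nsun2 stood at 130.0, 98.1 and 88.7 CPM across the libraries labelled Trmt6-/-, against 137.5, 77.0 and 101.5 CPM in WT. Its log2 fold change was 0.004 ± 0.25 SE. The widest difference between libraries thus lay within groups. Nsun3, the mitochondrial methionine tRNA enzyme, averaged 17.1 ± 1.5 CPM under the Trmt6-/- label and 18.6 ± 6.59 CPM in WT, Nsun6 7.37 ± 1.39 CPM under the Trmt6-/- label and 7.26 ± 1.41 CPM in WT, and Trdmt1 (DNMT2) 5.26 ± 0.92 CPM under the Trmt6-/- label and 7.07 ± 2.88 CPM in WT. Of the pseudouridine synthases, Pus1 stood at 29.97, 25.6 and 18.9 CPM under the Trmt6-/- label, against 35.8, 23.8 and 34.8 CPM in WT. Pus7 stood at 36.6, 24.0 and 14.7 CPM across the libraries labelled Trmt6-/-, against 37.6, 10.6 and 21.3 CPM in WT. Its range was 2.5-fold within the libraries labelled Trmt6-/- and 3.56-fold within WT, while its means of 25.1 CPM under the Trmt6-/- label and 23.2 CPM in WT were close.

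Of the remaining genes, among them the methyltransferase activator, none passed the test. Trmt1 (dimethylguanosine) averaged 36.9 ± 10.8 CPM under the Trmt6-/- label and 46.7 ± 15.7 CPM in WT, Trmt2a (5-methyluridine) 29.0 ± 3.32 CPM under the Trmt6-/- label and 31.1 ± 10.5 CPM in WT, and Trmt44 (a ribose-methylated uridine) 9.88 ± 0.97 CPM under the Trmt6-/- label and 11.7 ± 2.75 CPM in WT. Trmt10a averaged 3.40 ± 1.37 CPM under the Trmt6-/- label and 4.14 ± 0.83 CPM in WT. Trmt112, the activator of several methyltransferases including ALKBH8, averaged 12.9 ± 3.04 CPM under the Trmt6-/- label and 13.1 ± 3.53 CPM in WT. Thumpd1, the adaptor of tRNA cytidine acetylation, averaged 33.2 ± 6.60 CPM under the Trmt6-/- label and 27.2 ± 8.36 CPM in WT. Thg1l, which adds a guanosine to histidine tRNA, stood at 11.5, 9.71 and 10.8 CPM across the libraries labelled Trmt6-/-, against 10.9, 4.30 and 6.59 CPM in WT (log2 fold change 0.55 ± 0.36 SE, adjusted p = 0.624). WT185 reached the level of the libraries labelled Trmt6-/-, whereas WT186 and WT187 were lower.

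The genes varied together from library to library within each genotype. Of the 37 genes, 31 (83.8%) were highest in KO72 among the libraries labelled Trmt6-/-, and 30 (81.1%) were highest in WT185 among the WT libraries. Over all 14107 genes tested these shares were 38.3% and 37.3%. Both held for 28 of the 37 genes (75.7%, against 24.5% of all genes), and WT186 was the lowest WT library for 26 (70.3%, against 40.3%). Among 38 other genes of tRNA modification, 26 (68.4%) were highest in KO72, 28 (73.7%) in WT185 and 23 (60.5%) in both. WT186 was the lowest WT library for 19 of them (50%). The order was noticed in these data and was not tested, nor was the difference in it between the 37 and the 38 genes. With the other scalings compared, both held for 26 of 37 genes (RLE size factors), 29 (upper quartile) and 31 (library totals), against 23.7%, 28.9% and 39.5% of all genes. The 4 genes for which neither held were Nsun3, Mettl6, Alkbh8 and Dus2.

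**Figure D3:**
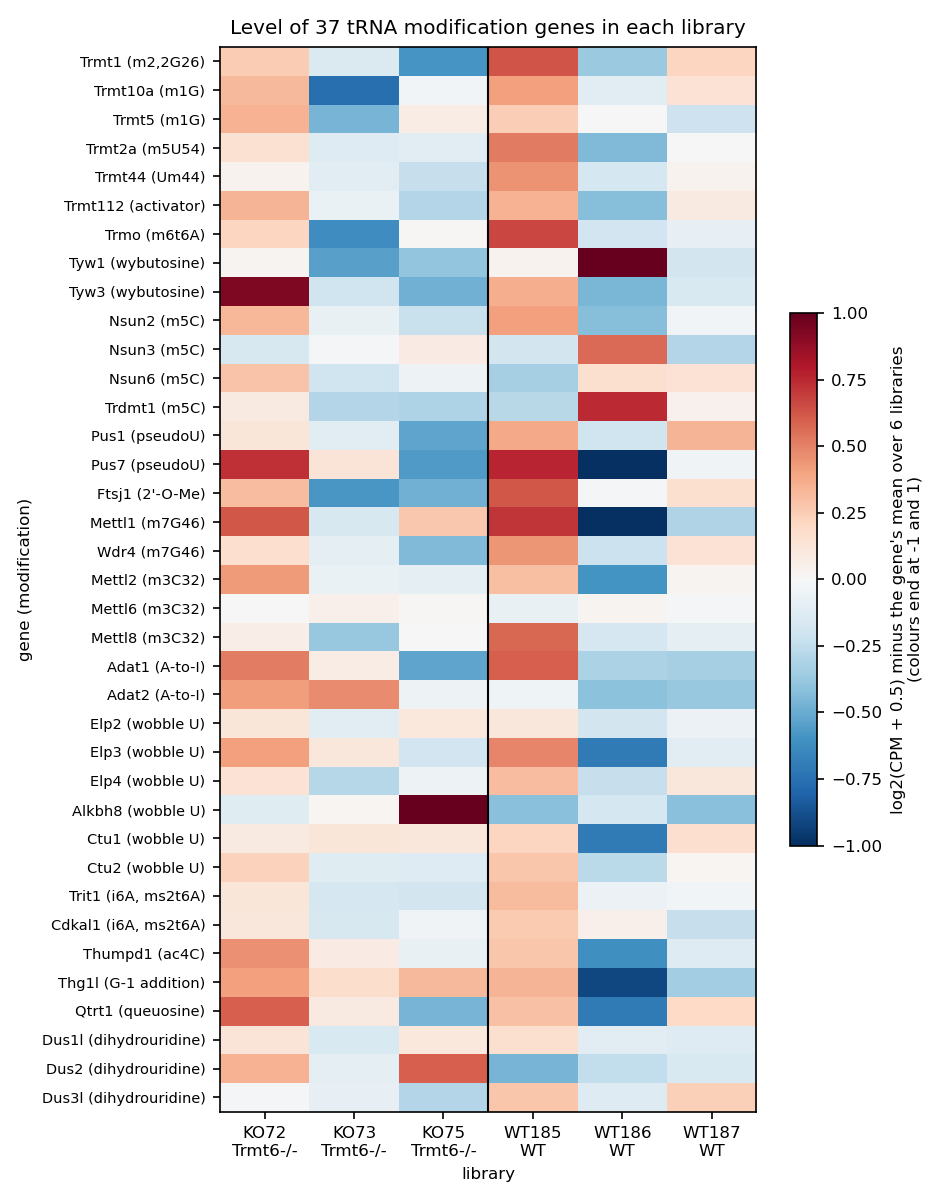
Each row is 1 of 37 tRNA modification genes, each column 1 library; colour is log2(CPM + 0.5) minus the gene's mean over the 6 libraries, red above and blue below it. The columns KO72 and WT185 are mostly red and WT186 mostly blue, with exceptions such as Tyw1, Trdmt1 and Nsun3 in WT186 and Alkbh8 in KO75.

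**Figure D4:**
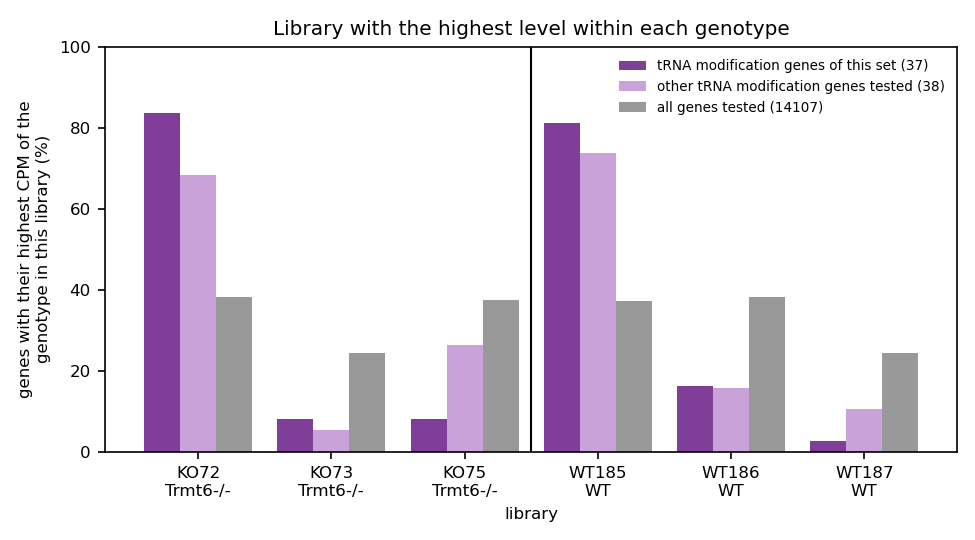
Share of genes (y axis, %) whose highest CPM within the genotype falls in each library (x axis), for the 37 tRNA modification genes, 38 other tRNA modification genes and all 14107 genes tested. The bars of the 37 genes reach 83.8% in KO72 and 81.1% in WT185, against 68.4% and 73.7% for the 38 other genes and 38.3% and 37.3% for all genes.

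The median of the 37 genes, as log2(CPM + 0.5) minus each gene's mean, was 0.23, -0.10 and -0.09 in KO72, KO73 and KO75, against 0.31, -0.22 and -0.03 in WT185, WT186 and WT187. The medians of all genes tested ran from -0.02 to 0.02. Proliferation genes (Mki67, Top2a, Pcna, Mcm2, Mcm5 and Cdk1) summed to 790.5, 518 and 302 CPM in libraries KO72, KO73 and KO75, against 1083, 435 and 828 CPM in libraries WT185, WT186 and WT187. Their highest library was thus also KO72 and WT185, and WT186 was also lowest in WT. Among the libraries labelled Trmt6-/- their lowest was KO75. That library was lowest for 18 of the 37 tRNA modification genes (48.6%, against 37.4% of all genes), and KO73 for 15 (40.5%, against 26.9%). Among the 38 other genes of tRNA modification, KO75 was lowest for 14 (36.8%) and KO73 for 21 (55.3%). Ileal markers (Fabp6, Slc10a2, Fgf15 and Slc51b) summed to 832, 641 and 179 CPM under the Trmt6-/- label, against 813, 59.8 and 35.6 CPM in WT. Proximal small-intestinal markers (Gata4, Lct, Cybrd1 and Fabp1) summed to 501, 2170 and 3728 CPM under the Trmt6-/- label, against 1427, 6102 and 3575 CPM in WT. Without overlap, Slc51b lay above WT and Gata4 below it (edgeR adjusted p = 0.191 and 0.281). The groups of the other genes in both lists overlapped. T and NK cell genes summed to 98.3, 271 and 826 CPM under the Trmt6-/- label, against 301, 444 and 1158 CPM in WT, with KO72 and WT185 lowest in their groups. The part of these cell populations and positions in the levels of the tRNA modification genes was not tested.

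**Figure D5:**
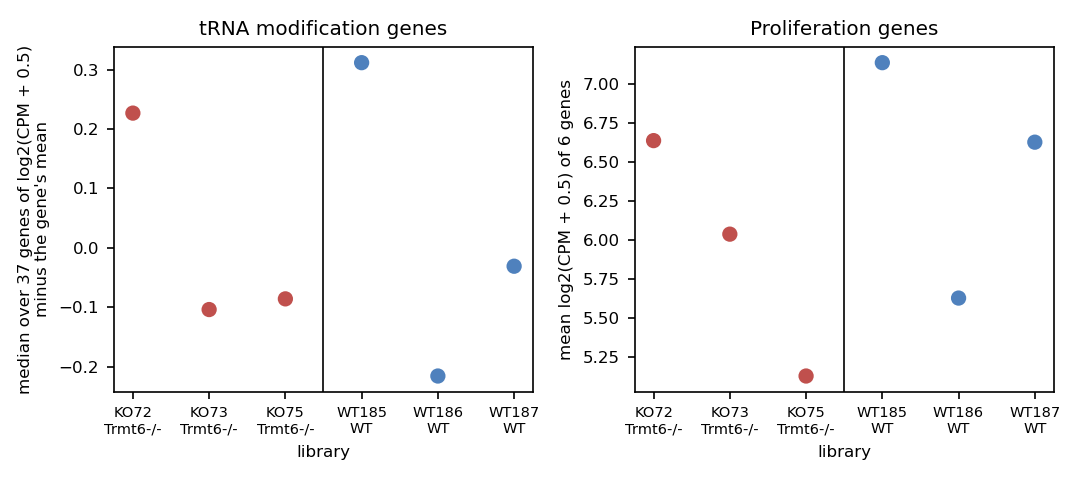
Left, median over 37 tRNA modification genes of log2(CPM + 0.5) minus each gene's mean; right, mean log2(CPM + 0.5) of 6 proliferation genes; each point is 1 library, red for the libraries labelled Trmt6-/- and blue for WT. KO72 and WT185 are highest in their group in both panels.

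With an index of ileal minus proximal small-intestinal markers as covariate, 11 of the 37 genes were at an unadjusted p below 0.05, 9 lower and 2 higher in the libraries labelled Trmt6-/- (29.7%, against 20.8% of all genes), and none passed after adjustment (lowest adjusted p = 0.0898, for Trmt1). The index was 0.59, -1.02 and -3.25 in KO72, KO73 and KO75, against -1.47, -6.82 and -5.64 in WT185, WT186 and WT187. KO72 and KO73 lay above all of WT, and KO75 lay below WT185, so the ranges overlapped. The index and the genotype labels were thus partly aligned, and this fit cannot fully separate them. The 9 lower genes were Trmt1, Trmt2a, Trmt44, Nsun2, Pus1, Pus7, Ftsj1, Wdr4 and Dus3l, and the 2 higher were Alkbh8 and Dus2. With the index of proliferation genes as covariate, chosen after seeing the data, 6 genes were below the same value (16.2%, against 22.4% of all genes), all of them higher, and none passed after adjustment (lowest adjusted p = 0.0753, for Pus7). Pus7 had log2 fold changes of -0.89 with the first index and 0.74 with the second, against 0.11 with neither.

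A further 38 genes of tRNA modification outside the 39 were tested in the same fit. None passed after adjustment in edgeR, DESeq2 or limma-voom, and 4 were at an unadjusted p below 0.05 in edgeR (10.5%, against 12.1% of all genes). Thumpd3, which methylates guanosine in the acceptor stem with Trmt112, stood at 51.0, 46.1 and 38.9 CPM in libraries KO72, KO73 and KO75, against 35.9, 33.8 and 30.2 CPM in libraries WT185, WT186 and WT187. Yrdc, which makes the threonylcarbamoyl donor, stood at 20.2, 13.2 and 23.1 CPM under the Trmt6-/- label, against 13.8, 9.42 and 12.7 CPM in WT. Mto1, a mitochondrial wobble uridine enzyme, stood at 11.2, 8.17 and 8.97 CPM under the Trmt6-/- label, against 16.9, 11.3 and 16.8 CPM in WT. Elp5, an Elongator subunit, stood at 22.5, 20.3 and 25.6 CPM under the Trmt6-/- label, against 27.7, 31.0 and 32.1 CPM in WT. Thumpd3 and Yrdc had log2 fold changes of 0.44 ± 0.16 and 0.65 ± 0.27 SE, and Mto1 and Elp5 of -0.67 ± 0.25 and -0.41 ± 0.16 SE, with adjusted p between 0.337 and 0.413. The groups of 4 of the 38 genes did not overlap (10.5%, against 18.7% of all genes): the libraries labelled Trmt6-/- lay above WT for Thumpd3 and below WT for Mto1, Elp5 and Gon7, a subunit of the threonylcarbamoyl complex. Gon7 is named because of its values.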

How the data were processed

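RNA-seq was done on intestinal tissue of mice, in 6 libraries. Per the labels' protocols, total RNA was made into cDNA, amplified and turned into libraries with the TruePrep kit, with no molecular identifiers mentioned. The submitters' processing notes name fastp, HISAT2 and mm10. The deposited values are raw read counts by gene that were made, per the file headers, with featureCounts 2.0.1 on paired reads and GENCODE M23. The header gives no strand, multimapping or overlap option, so reads over exons of several genes were left out. The deposited exon length column (unit: other) was used for RPKM. Columns name a genotype and a number that is not tied to a replicate.

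The members, gene lists and classes were chosen with earlier results of these data known. Symbols came from GENCODE M21 (55154 of 55335 identifiers matched), and coordinates and exon sharing from the deposited table. Tp53rk, listed among the other tRNA modification genes, had no match. In R 4.3.3, edgeR 4.0.16 was used: filterByExpr for the low-count filter, TMM for scaling and its two-sided quasi-likelihood test on genotype alone, with Benjamini-Hochberg adjustment over all genes tested. The biological coefficient of variation was 0.345. SE is the log2 fold change divided by the square root of F, and SD is over 3 libraries. The edgeR p-values set the difference between groups against the variation between these libraries. DESeq2 1.42.0 and limma-voom (limma 3.58.1), other scalings and filters, covariates and leaving out each library were alternatives. All genes of the set are reported; libraries are given singly for partner pairs, the extremes of level and genes picked for their values. A count of 0 allows up to 3 counts, or 0.177 to 0.197 CPM of the unscaled total, in a library; this covers counting error only.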

Additional observations from a re-analysis of the deposited data

How the results depend on the processing

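No paired analysis was possible because the columns carry no replicate number, so the replicate block was not run. None of the 37 genes tested and none of the 38 other genes passed after adjustment under any alternative run. Pus3 and Adat3, without counts, were not tested in any of them. Genes of the set at an unadjusted p below 0.05, 0 in the main fit, numbered 1 with RLE size factors (12% of all genes), 2 each with upper-quartile scaling (12.3%), DESeq2 (13.9%) and no low-count filter (8.39%), 11 with the regional index (20.8%), 3 with the leukocyte index (12.6%), 6 with the proliferation index, added after seeing the data (22.4%), and 0 to 2 without single libraries (7.14% to 14.5%). Groups without overlap, 2 in the main fit, numbered 1 with library totals (18.5% of all genes), 3 with upper-quartile scaling (18.9%) and 2 to 7 without single libraries, with 6 without KO72 (27.8%) or WT185 (32.2%) and 7 without WT186 (30.8%). Genes above 0, 18 in the main fit, numbered 13 with library totals, 7 with the regional index, 11 with the leukocyte index, 23 with the proliferation index and 10 without KO72 to 25 without WT185. With library totals the median log2 fold change was -0.08 for the set and -0.105 for all genes tested, so both moved down. The medians were -0.146 and -0.039 with the leukocyte index, and 0.098 and -0.012 with the proliferation index. The median log2 fold change of the set was -0.425 with the regional index and ran from -0.204 without KO72 to 0.147 without WT185. For all genes tested the median in these fits was 0.004, -0.039 and 0. The cause was not tested. The difference in the Mettl1 to Wdr4 ratio ran from 0.462 to 1.108 without single libraries. Over all genes, 6 passed in the main fit, 633 in DESeq2, 159 with no low-count filter, 343 with the proliferation index, and 0 with library totals, limma-voom or the regional index; without single libraries the number was 0 to 6. Among single genes, 545 values under alternatives moved by less than the gene's SE in the main fit and 47 by more, and none passed the threshold. Depth limits Tyw3, Trmo and Adat2 most, each with 175 to 334 counts over the 6 libraries.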
